A study of Arabidopsis thaliana with 6 samples.

Results

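The white leaf margin of an Arabidopsis thaliana mutant was set against the leaf centre of the wild type, 2 libraries against 2 out of 6 in the series. The libraries labelled FLV border come from the white border of young rosette leaves of the T-DNA insertion line SALK_139995, given in the labels as FLV mutants and in the design text as flv/dot4. The libraries labelled WT centre come from the middle of young rosette leaves of Col-0. The 2 remaining libraries, WT border, come from the green border of Col-0 leaves and were used to divide each difference into a genotype step (FLV border over WT border) and a position step (WT border over WT centre). All plants were untreated, kept on soil between 18 and 21 °C with light of up to 90 µE, and sampled at Boyes stage 1.13. The mutant is a single insertion line, and nothing in the labels says that the 2 libraries of a group are separate plants, so the p-values measure only the spread between these libraries, which may be technical.

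Leaf cells stop dividing first at the tip and then along the blade, while cells at the margin can stay young for longer, so a border and a centre piece can differ in developmental age as well as in tissue. Chloroplasts form as these cells mature: nuclear and plastid genes for the photosynthetic machinery are switched on after an early phase in which the plastid builds its own transcription apparatus. DOT4 belongs to the pentatricopeptide repeat family and is required to edit a site in the plastid transcript rpoC1, which encodes a subunit of the plastid RNA polymerase, and mutants that lose it have pale or white leaf margins. The comparison of the white margin with the green centre therefore changes genotype and leaf position together. The WT border libraries give genotype at the margin and leaf position in the wild type. No library comes from a mutant leaf centre, so the difference by leaf position within the mutant is not known.

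The deposited counts summed to 28674853 and 28610392 for FLV border, to 28532514 and 25257893 for WT border and to 20448315 and 33214552 for WT centre. Plastid genes took 12.8 and 24.2% of the FLV border counts, 24.2 and 31.4% of the WT border counts and 41.9 and 38.5% of the WT centre counts. Scaling factors (TMM, which aligns the bulk of genes between libraries) were 1.71 and 1.73 for FLV border, 1.22 and 1.14 for WT border and 0.551 and 0.439 for WT centre. With library totals alone the median log2 fold change of all genes in FLV border over WT centre was 1.85, against 0.05 with TMM, so every change below is relative to the bulk of genes. Library 1 of WT centre stood apart: 70.9% of its reads were mapped against 83.3 to 88.9% in the other libraries, and small nucleolar, spliceosomal and transfer RNA loci took 17.3% of its counts against 2.2 to 9.97%.

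DOT4 (AT4G18750; chromosome 4, 10304662 to 10307673 of TAIR10.1, + strand) had 10.2 and 12.5 CPM in FLV border, 0.516 and 1.81 CPM in WT border and 0.444 and 0.412 CPM in WT centre. The libraries labelled FLV border were thus the highest, with no overlap with either wild-type group. Over WT centre the log2 fold change was 4.72 ± 0.76 (standard error; adjusted p = 0.0164, edgeR's quasi-likelihood test with Benjamini-Hochberg adjustment, used for all adjusted p-values here). Over WT border it was 3.29 ± 0.66 and was not called (adjusted p = 0.322). The counts go against a loss of DOT4 transcript, but they carry no position within the gene and an insertion need not remove reads from the rest of it, so they do not check the labels. Plastid rpoC1, the transcript that DOT4 edits, had 229 and 659 CPM in FLV border, 106 and 203 CPM in WT border and 286 and 84.1 CPM in WT centre. Its level in FLV border was not called different from that in WT centre, at 1.26 ± 0.76 (adjusted p = 0.26). The deposited counts hold no editing information.

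Of 21852 genes tested, 3096 passed an adjusted p of 0.05 between the white mutant margin and the wild-type centre, hereafter called. FLV border was higher for 1490 genes, 6.82% of those tested, and lower for 1606, 7.35%. The genes called lower included 50 plastid genes, and the genes called higher included none, of 125 plastid genes tested. Of 140 mitochondrial genes tested, 23 were called higher and 7 lower. The calls need both mutant libraries: without FLV border library 1 no gene was called with edgeR, although 5161 had an unadjusted p under 0.05, and without FLV border library 2 there were 28 calls. Without WT centre library 1, which stood apart, 1696 were called higher and 1872 lower, of which 1072 and 1129 were among the calls above. Each of the 3096 genes that was still tested kept its sign under each of 17 alternative settings, and 2996 did with library totals. As these are pieces of tissue, fewer cells of a type and less RNA per cell cannot be told apart.

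Of the 3096 called genes, 1377 also separated the mutant margin from the wild-type margin, meaning that both FLV border libraries lay beyond both WT border libraries in the same direction as over WT centre. That is 44.5% of the called genes, and 26.7% of all genes tested met the same condition. A further 1521 genes followed leaf position only: both WT border libraries lay beyond both WT centre libraries in that direction, while the 2 margins overlapped. An overlap does not show that a gene is equal in the 2 margins. Over all genes tested this held for 34.4%. Another 194 genes moved in the opposite direction between the margins by the order of the libraries, and 4 did none of these. None of the 194 was called between the margins, and their share over all genes tested was not computed. No test was made between these shares, and the comparisons share libraries: FLV border with the first, WT centre with the second. In the fit, the log2 fold change over WT centre is the sum of the genotype step and the position step.

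The balance differed by direction. Among genes called higher, 540 (36.2%) also separated the margins and 863 (57.9%) followed position only. Among genes called lower, 837 (52.1%) also separated the margins and 658 (41.0%) followed position only. The shares over all genes tested were not split by direction, so this difference has no background beside it. In a direct test of FLV border over WT border only 13 genes were called, 0.0595% of those tested, and 12 of them were among the 1377, 11 higher and 1 lower. WT border over WT centre called 1339 genes, 6.13%, among them 754 of the 1521 that followed position only. The number of margin calls changed with the setting: DESeq2 made 194, the length offset left 2 of the 13, and without FLV border library 2 there was 1. With edgeR none was made with the library number as a replicate block (smallest adjusted p = 0.054; 1313 genes at an unadjusted p under 0.05), without FLV border library 1 (503 genes at an unadjusted p under 0.05) or without WT border library 1 or 2 (766 and 1099). Each of the 13 kept its sign in all 17 alternatives that include WT border. Most of the 1377 therefore rest on the order of 4 margin libraries and not on a test between the margins. Of the 1377, 1206 also had WT border beyond WT centre in the same direction, an ordered series of the 3 groups, and 171 did not. Over all genes tested, WT border and WT centre did not overlap for 57.8%, in either direction. The 1377 were picked by a call over WT centre, and the share of all genes tested in this order was not computed.

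**Figure D1:**
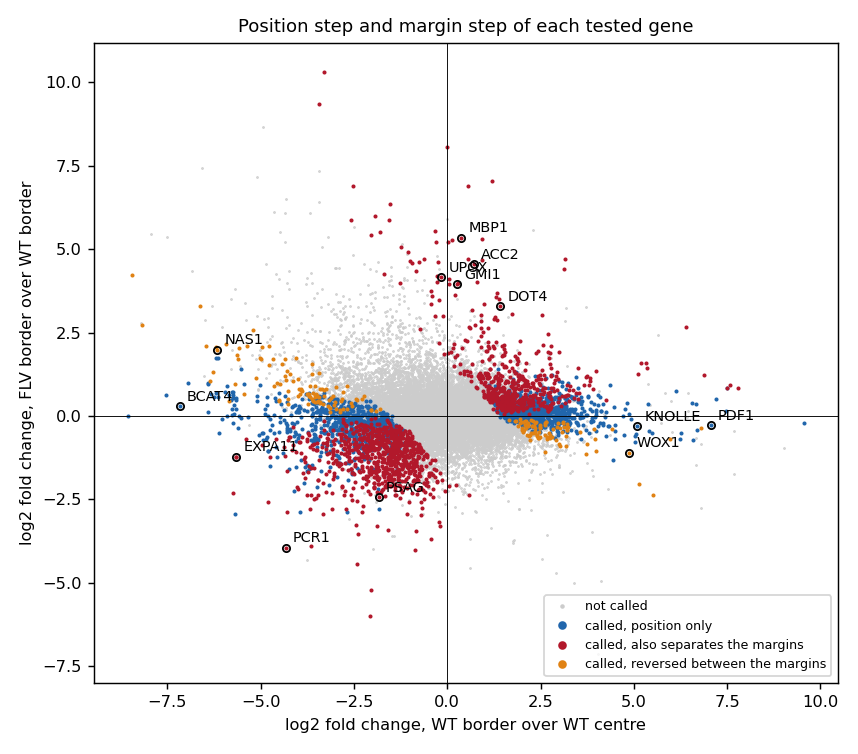
Each point is a gene tested, with its position step on the x axis and its genotype step on the y axis, both as log2 fold changes. The sum of the 2 is the change of FLV border over WT centre. Of the 3096 called genes, 1521 (blue) follow position only, 1377 (red) also separate the margins, and 194 (orange) reverse between the margins. The 4 that did none of these are not drawn. Blue genes are set by overlap of the margin libraries. Their median on the y axis was 0.12 for genes called higher and -0.18 for genes called lower, and single genes lie further from 0. The axes share libraries of WT border, so the slope of the grey cloud has no meaning of its own.

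Few genes were called higher in the white margin over both wild-type tissues. ACC2 codes for the acetyl-CoA carboxylase that is imported into plastids, which makes the substrate of fatty acid synthesis. It lies on chromosome 1 from 13545965 to 13558600 of TAIR10.1 (+ strand), and its counts came to 128 and 97.9 CPM in FLV border, 4.04 and 5.59 CPM in WT border and 2.49 and 3.37 CPM in WT centre. Both FLV border libraries were far above the other 4. The log2 fold change was 5.26 ± 0.54 over WT centre (adjusted p = 0.00732) and 4.55 ± 0.51 over WT border (adjusted p = 0.0392), while the position step was 0.71 ± 0.46 and was not called. Its nearby paralog, ACC1, which codes for the cytosolic form, had 133 and 121 CPM in FLV border, 69.8 and 100.01 CPM in WT border and 17.4 and 21.9 CPM in WT centre and was called over WT centre at 2.69 ± 0.48 (adjusted p = 0.0187) but not over WT border. The other 4 genes of the acetyl-CoA carboxylase list, subunits of the multi-subunit plastid enzyme, were not called. The counting of reads shared by the near-identical ACC1 and ACC2 is not known.

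GMI1, a gene of DNA repair induced by gamma irradiation and mitomycin C, had 35.2 and 35.0 CPM in FLV border, 2.84 and 1.70 CPM in WT border and 2.13 and 1.65 CPM in WT centre. The WT border and WT centre libraries overlapped, and both FLV border libraries stood above them. FLV border was higher at 4.22 ± 0.51 over WT centre (adjusted p = 0.0107) and at 3.95 ± 0.49 over WT border (adjusted p = 0.0392). MBP1 codes for a protein that binds myrosinase, the enzyme that cleaves glucosinolates. Its libraries held 30.4 and 11 CPM in FLV border, 0.487 and 0.521 CPM in WT border and 0.355 and 0.412 CPM in WT centre, so its 2 mutant libraries differed from each other more than those of GMI1 but were both far above the wild type. Its changes were 5.73 ± 0.71 over WT centre (adjusted p = 0.0119) and 5.35 ± 0.67 over WT border (adjusted p = 0.0392). AT2G18193, annotated as a nucleoside triphosphate hydrolase of the P-loop class, had 23.9 and 33.0 CPM in FLV border, 0.258 and 0.208 CPM in WT border and 0.267 and 0.0687 CPM in WT centre and the changes 7.45 ± 0.71 and 6.90 ± 0.64 (adjusted p = 0.00732 and 0.0209).

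The remaining genes called in both comparisons were the NAC transcription factor ANAC087, the threonyl-tRNA synthetase gene AT1G17960, AT5G45990 (annotated as a crooked neck protein), 3 DUF295 genes and UPOX, and, lower in the mutant margin, AT4G13575. They are given here because they passed both tests. ANAC087 had 28.4 and 14.3 CPM in FLV border, 0.688 and 0.452 CPM in WT border and 0.355 and 0.756 CPM in WT centre, AT1G17960 had 9.73 and 10.4 CPM in FLV border, 0.287 and 0.139 CPM in WT border and 0.977 and 0.549 CPM in WT centre, and AT5G45990 had 10.4 and 6.17 CPM in FLV border, 0.115 and 0.139 CPM in WT border and 0.355 and 0.618 CPM in WT centre. In all 3 the wild-type groups were at or below 1 CPM and both FLV border libraries above 6 CPM. The 13th gene called between the margins, AT5G03495, annotated as an RNA-binding protein, had 8.10 and 6.61 CPM in FLV border, 0.0287 and 0.0695 CPM in WT border and 2.67 and 0.893 CPM in WT centre. It was not called over WT centre (adjusted p = 0.066), where its level was intermediate.

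Other large increases of this class lay in genes that the direct test between the margins did not call. AT3G57600, annotated as a DNA-binding protein of the integrase type, had 11.2 and 9.18 CPM in FLV border, 4.96 and 3.54 CPM in WT border and 0.267 and 0 CPM in WT centre, that is 1003 counts in FLV border against 3 in WT centre, a ratio of 87.7 per normalised library size (95% interval 29.9 to 426, counting error only). AT3G58270, annotated as phospholipase-like, had 13.4 and 11.9 CPM in FLV border, 2.38 and 0.695 CPM in WT border and 0.0888 and 0.412 CPM in WT centre. Both genes lay in the order FLV border, WT border, WT centre, but neither was called between the margins (adjusted p = 0.962 for AT3G57600 and 0.395 for AT3G58270).

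DUF295 genes code for a plant family of uncharacterised proteins that share a domain of unknown function. Of 70 family members, 28 were tested, 7 were called higher in FLV border over WT centre and none lower, and all 7 also separated the margins. The median log2 fold change of the 28 was 0.79 over WT centre, with 0.82 for the genotype step and -0.47 for the position step, beside 0.05, 0.02 and -0.02 over all genes tested. AT1G30170 was counted at 30.7 and 19.3 CPM in FLV border, 0.0287 and 0 CPM in WT border and 0.0888 and 0.275 CPM in WT centre. Its level was 10.32 ± 0.91 log2 units higher than in WT border, where only 1 count was seen against 2455, a ratio of 1587 with an interval of 284.6 to 62721.6. AT5G53230 had 17.5 and 8.73 CPM in FLV border, 0.0860 and 0.104 CPM in WT border and 0.0888 and 0 CPM in WT centre, or 1290 counts against 1 in WT centre, a ratio of 338 (60.6 to 13369.6). Fitted log2 values for such genes (8.24 for AT5G53230 and 7.01 for AT1G30170 over WT centre) depend on how the fit treats near-zero counts.

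The neighbour of AT5G53230, AT5G53240, had 15.8 and 7.18 CPM in FLV border, 0.115 and 0.0695 CPM in WT border and 0.800 and 0.343 CPM in WT centre and was called over WT centre at 4.35 ± 0.71 (adjusted p = 0.0167) and over WT border (adjusted p = 0.0392). Reads of this tandem pair may not be separable. The other called members were AT5G55270 (3.83 over WT centre), AT5G54560 (3.90), AT4G13680 (3.86) and AT5G54550 (3.24). Without a filter on low counts, which adds members with few reads, the family median was -0.02 with 8 called higher and 1 lower. The 21 members that were not called had log2 fold changes down to -2.44, so the family did not move as a whole.

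Genes of the mitochondrial dysfunction response, which plants switch on when respiration is disturbed, showed the same partition. Of 18 genes on the list 13 were tested, and 5 were called higher, none lower, and all 5 also separated the margins. The list median was 1.35 over WT centre, 1.2 for the genotype step and -0.03 for the position step. UPOX, a small protein of mitochondria that responds to oxidative stress, had 24.4 and 26.6 CPM in FLV border, 1.58 and 1.25 CPM in WT border and 1.07 and 2.06 CPM in WT centre. The wild-type libraries overlapped between border and centre, and FLV border was higher by 4.01 ± 0.53 over WT centre (adjusted p = 0.013) and by 4.17 ± 0.52 over WT border (adjusted p = 0.0392). NDB4, an alternative NAD(P)H dehydrogenase of the inner mitochondrial membrane, had 3.67 and 3.21 CPM in FLV border, 0.0860 and 0.174 CPM in WT border and 0.267 and 0.137 CPM in WT centre and was called at 4.1 ± 0.80 over WT centre (adjusted p = 0.0207). ANAC053, a NAC transcription factor, MGE1, a co-chaperone of mitochondrial HSP70, and HSP23.5, a small heat shock protein of mitochondria, were called at 3.08, 1.92 and 3.35. None of these 4 was called between the margins.

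The upstream region of UPOX is shown because it holds the mitochondrial dysfunction motif, searched as CTTGNNNNNCAAG or CTTGNNNNNCACG on both strands in the 250 bases before the RefSeq gene start (TAIR10.1). The motif was present in 315 of 26711 such regions, 1.18%, and in 6 of the 18 list members. In the UPOX region, chr2:9254128-9254377 on the + strand, it begins 51 bases before the start (capitals).
UPOX: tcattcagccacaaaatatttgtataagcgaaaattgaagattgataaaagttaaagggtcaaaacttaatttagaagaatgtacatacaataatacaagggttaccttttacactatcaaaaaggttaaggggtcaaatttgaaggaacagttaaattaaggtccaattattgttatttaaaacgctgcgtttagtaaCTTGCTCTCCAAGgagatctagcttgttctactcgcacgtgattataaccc
A match describes the sequence and does not show that a factor binds there.

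The list of DNA damage response genes had 14 members tested, of which 5 were called higher and none lower, with a median of 1.63 over WT centre, 0.91 for the genotype step and 0.54 for the position step. Here the members divided. GMI1 and XRI1, a gene induced by X-rays, set the mutant margin apart, XRI1 at 2.01 ± 0.52 over WT centre with 1.91 of that in the genotype step. BRCA1, a DNA repair gene, had 4.0 and 5.86 CPM in FLV border, 1.83 and 3.68 CPM in WT border and 0.711 and 0.206 CPM in WT centre and followed the order of the 3 groups. RNR1, a subunit of ribonucleotide reductase, and CYCB1;1, a mitotic cyclin that is also induced by DNA damage, followed position only.

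**Figure D2:**
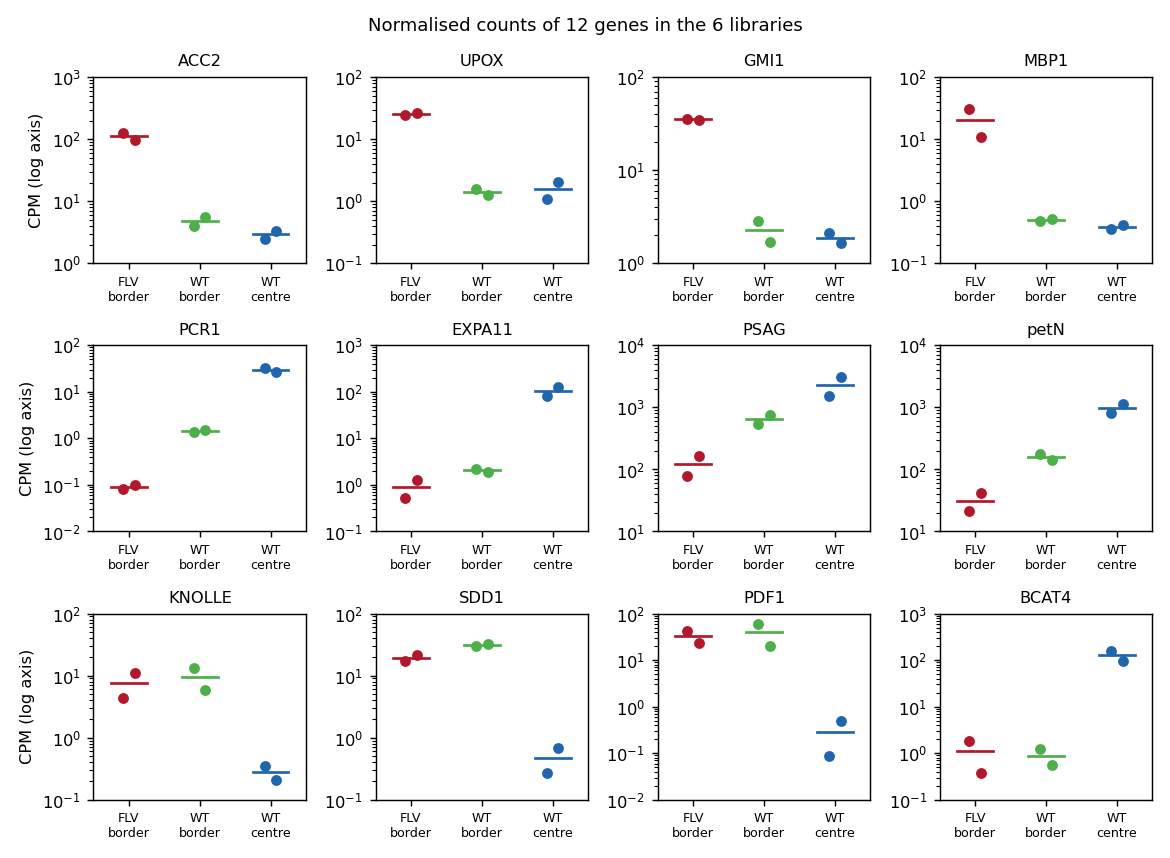
Normalised counts (CPM, log axis) of 12 genes in each library of the FLV border, the WT border and the WT centre groups, with a bar at the mean of each pair of points. ACC2, UPOX, GMI1 and MBP1 are high in FLV border alone, PCR1, EXPA11, PSAG and petN are lowest in FLV border and highest in WT centre, and KNOLLE, SDD1, PDF1 and BCAT4 have both borders on the same side of WT centre.

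Among genes lower in the white margin, PCR1 had the largest change of the class that also separates the margins among genes of at least 5 CPM. PCR1 (chromosome 1, 5132506 to 5133860 of TAIR10.1, - strand) codes for a plasma membrane protein that lowers cadmium uptake. The levels were 0.0816 and 0.101 CPM in FLV border, 1.4 and 1.53 CPM in WT border and 33.0 and 26.2 CPM in WT centre. The 3 groups did not overlap, and WT border lay between the others. The log2 fold change was -8.28 ± 0.60 over WT centre (adjusted p = 0.00452), made up of -3.95 ± 0.53 between the margins (adjusted p = 0.0597, not called) and -4.33 ± 0.48 for position. AT4G13575, of unknown function, had 0.163 and 0.182 CPM in FLV border, 8.08 and 14.6 CPM in WT border and 35.8 and 59.8 CPM in WT centre, and was the single gene called lower in both FLV border comparisons, at -8.08 ± 0.67 over WT centre (adjusted p = 0.00732) and -6.00 ± 0.62 over WT border (adjusted p = 0.0316).

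EXPA11, an alpha-expansin, a class of proteins that loosen cell walls, had 0.531 and 1.25 CPM in FLV border, 2.21 and 1.95 CPM in WT border and 81.2 and 129 CPM in WT centre. Its change of -6.87 ± 0.67 over WT centre (adjusted p = 0.00732) lay mostly in the position step, -5.66 ± 0.63, and the step between the margins, -1.22 ± 0.54, was not called. AT1G24147 (-7.36 over WT centre), AT1G30260 (-6.89) and AT1G72645 (-8.05) were divided in the same way, with position steps of -4.80, -5.66 and -5.74. The 2 WT centre libraries of AT1G72645 were far apart, at 10658 and 737 CPM. Of 13 alpha-expansins tested, 2 were called lower and 1 higher, with a list median of -0.96. With library totals the median turned to 0.77, with 6 called higher and 1 lower, and it was -0.03 without WT centre library 1 and -0.01 without WT centre library 2.

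Nuclear genes for photosynthesis were lower in the white margin, and the difference was spread over both steps. Of 31 nuclear genes for photosystem subunits, electron carriers and the plastid ATP synthase, 24 were called lower, none higher, and all 24 also separated the margins. The list median was -3.23 over WT centre, -1.94 for the genotype step and -1.30 for the position step. None was called in either step alone. PSAG, a photosystem I subunit, had 79.0 and 162 CPM in FLV border, 543 and 755 CPM in WT border and 1551 and 3079.9 CPM in WT centre. The groups did not overlap, and FLV border was lower at -4.26 ± 0.76 over WT centre (adjusted p = 0.0187). PSAH-1 and PSAK, also of photosystem I, were called at -4.20 ± 0.76 and -3.49 ± 0.66 (adjusted p = 0.0187 and 0.0199), and ATPD, the delta subunit of the plastid ATP synthase, at -3.38 ± 0.60 (adjusted p = 0.0183). PSAD-2 and PETE1, a photosystem I subunit and a plastocyanin, had most of their change between the margins: -4.0 of -4.86 for PSAD-2 and -2.34 of -2.80 for PETE1. With library totals 6 of the 31 were called lower and 1 higher. With an offset for gene length 10 were called lower.

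The Calvin-Benson cycle, which fixes carbon dioxide, had 10 of 18 genes called lower and none higher, all 10 of which also separated the margins, with medians of -2.70 over WT centre, -1.64 for the genotype step and -0.95 for position. RBCS2B, a small subunit of Rubisco, had 345 and 200.5 CPM in FLV border, 2358 and 1875 CPM in WT border and 2058 and 4836 CPM in WT centre. WT border and WT centre overlapped, and both FLV border libraries were below them, at -3.66 ± 0.78 over WT centre (adjusted p = 0.024). With library totals 1 of the 18 was called lower, with a median of -0.86, and 1 was with the 4 libraries of FLV border and WT centre alone. GAPA-2, FBA1 and CP12-2, which code for glyceraldehyde-3-phosphate dehydrogenase, fructose-bisphosphate aldolase and a regulator of the cycle, were called at -3.07, -3.0 and -3.05. RBCS1A, the defining mesophyll marker of the cycle, had 1557 and 2827 CPM in FLV border, 7325 and 8062 CPM in WT border and 18365 and 20198 CPM in WT centre and was called lower at -3.14 ± 0.81 (adjusted p = 0.0376).

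Light-harvesting genes had the lowest medians of these lists but the fewest calls, and the libraries of each group were far apart. All 20 had a negative log2 fold change over WT centre, with a median of -3.52, and 3 were called. The summed level of the 20 genes was 5612 and 23510.2 CPM in FLV border, 24770.9 and 87938.5 CPM in WT border, and 21661 and 345502 CPM in WT centre, so library 2 was the higher in every group. LHCB1.1, the antenna gene taken as a mesophyll marker, had 75.1 and 2143 CPM in FLV border, 426 and 6816 CPM in WT border and 201 and 20255 CPM in WT centre and was not called (adjusted p = 0.291). LHCA6, LHCB4.3 and LHCA2, antenna genes of photosystems I and II, were called at -2.97 ± 0.78, -2.78 ± 0.71 and -3.88 ± 1.09 (adjusted p = 0.0387, 0.0365 and 0.0463). Without WT centre library 2 the list median was -0.23 with no call, and without WT centre library 1 it was -4.40 with 11 calls. With the library number as a replicate block 9 were called, and with library totals none was with edgeR, at a median of -1.57.

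Of 23 chlorophyll synthesis genes 2 were called lower and none higher. CHLG, the last enzyme of the pathway, had 89.2 and 116 CPM in FLV border compared with 706 and 307 CPM in WT centre, at -2.30 ± 0.59 (adjusted p = 0.0366). GLK1, a transcription factor that activates photosynthesis genes, had 39.4 and 40.8 CPM in FLV border, 193 and 174 CPM in WT border and 90.0 and 529.9 CPM in WT centre and was called at -2.95 ± 0.78 (adjusted p = 0.0403), with the WT groups overlapping. The list medians were -0.35 over WT centre, -0.88 for the genotype step and 0.83 for the position step, so the steps went in opposite directions. The median over WT centre turned to 1.52 with library totals, where 12 genes were called higher and none lower, and to 0.39 without WT centre library 2. Photorespiration, which recycles the product of Rubisco's oxygenase reaction, had 3 of 13 genes called lower: AGT1, a peroxisomal aminotransferase, at -3.25 ± 0.70, GDCH, a glycine decarboxylase subunit, at -2.66 ± 0.58, and CAT2, a leaf catalase, at -2.80 ± 0.73 (adjusted p = 0.025, 0.0259 and 0.0389). All 3 also separated the margins. The list medians were -1.12 over WT centre, -1.33 for the genotype step and 0.30 for the position step. The median over WT centre became 0.64 with library totals, where 3 genes were called higher and none lower.

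**Figure D3:**
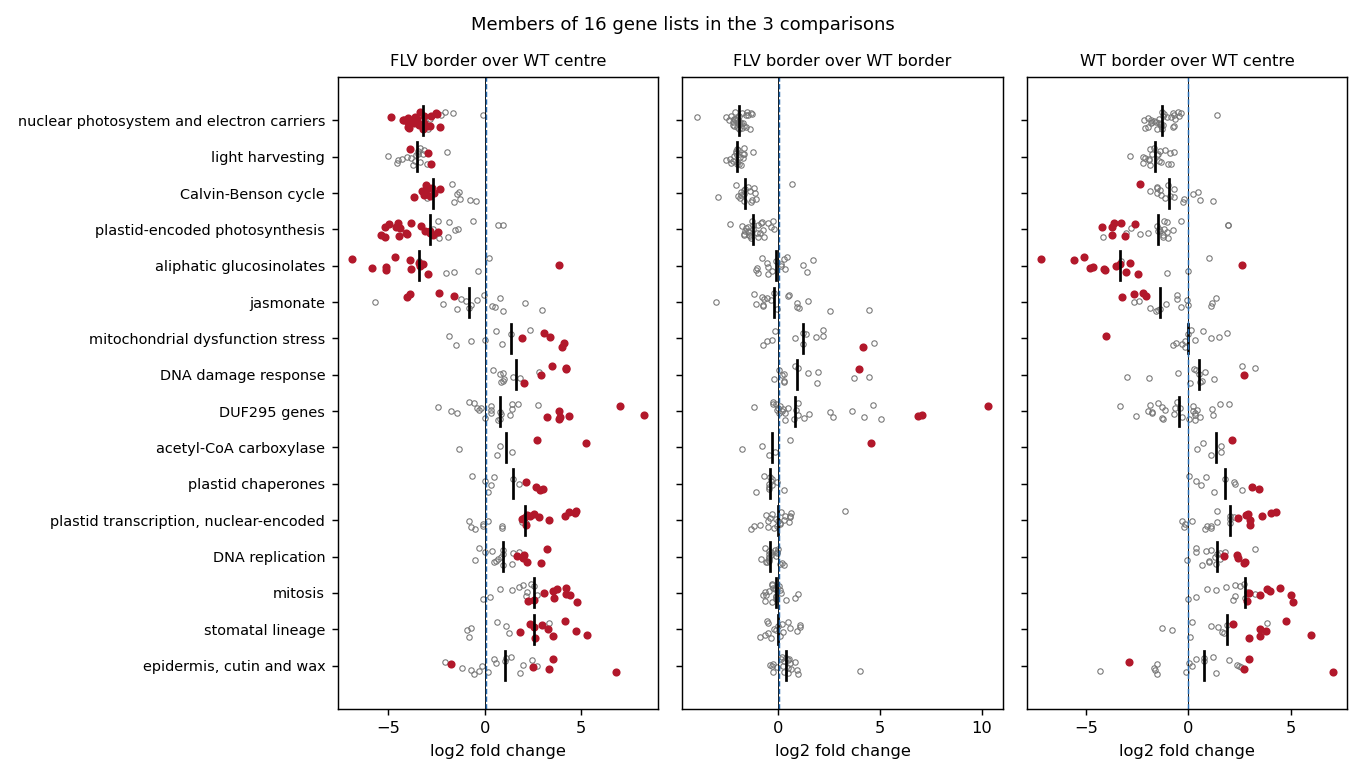
Log2 fold changes of the tested members of 16 gene lists (rows) for FLV border over WT centre, FLV border over WT border and WT border over WT centre (panels). Filled red points are called at an adjusted p under 0.05, open points are not, the black bar is the list median and the blue dashed line the median of all genes tested. The medians of the 4 photosynthesis lists lie left of 0 in all 3 panels, the mitosis and stomatal lineage lists lie near 0 in the middle panel with medians of -0.13 and -0.02, and 3 DUF295 genes stand out in it.

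Plastid genes for photosynthesis, carried by the chloroplast genome itself, were lower as well. Of 27 genes, 17 were called lower and none higher. Of these, 15 also separated the margins and 2, psaI and petL, followed position only. The medians were -2.87 over WT centre, -1.24 for the genotype step and -1.47 for the position step. petN, a cytochrome b6f subunit, had 21.1 and 41.4 CPM in FLV border, 180.2 and 143 CPM in WT border and 811 and 1132 CPM in WT centre and was called at -4.96 ± 0.66 (adjusted p = 0.013). psbM, of photosystem II, had 49.2 and 76.8 CPM in FLV border, 203 and 197 CPM in WT border and 3339 and 2005 CPM in WT centre, at -5.41 ± 0.73 (adjusted p = 0.013). The 3 groups did not overlap for either gene. psbN and psbK were called at -4.47 and -4.01, and psbA, the reaction centre gene with the most counts, at -4.41 ± 1.19 (adjusted p = 0.0422). The called genes include many of the shortest in the plastid: the median model length on this list was 189 bases, against 1527 over all genes tested. With library totals 11 of the 27 were called lower and 2 higher.

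Plastid genes on the other lists moved less. Most of the 50 plastid genes called lower belong to none of the plastid lists and are not described here. Of 15 genes for the plastid ATP synthase and the NDH complex, 1 was called, atpI, a subunit of the membrane part of the ATP synthase, at -2.80 ± 0.66 (adjusted p = 0.0299). The list median was -1.31, and 0.45 with library totals, where 1 gene was called higher and none lower. Of 8 housekeeping genes, rpoA, a subunit of the plastid RNA polymerase, was called lower at -2.09 ± 0.56 (adjusted p = 0.0404) and followed position only, and the list median was 0.01. With library totals the median was 1.78, with 5 called higher and none lower, and with 1 library left out it ran from -0.31 to 0.47. Plastid genes are named by their identifiers and by model lengths equal to those of the reference gene.

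The nuclear genes that build the plastid's transcription apparatus went the other way. Of 22 genes for sigma factors, phage-type polymerases and proteins bound to the plastid RNA polymerase, 12 were called higher in FLV border over WT centre and none lower. Of these, 9 followed position only, 2 reversed between the margins and 1, DOT4, also separated the margins. The medians were 2.06 over WT centre, -0.04 for the genotype step and 2.04 for the position step. FLN1, a fructokinase-like protein of the polymerase complex, had 46.3 and 58.4 CPM in FLV border, 58.1 and 37.6 CPM in WT border and 1.24 and 3.71 CPM in WT centre. The 2 borders overlapped, and both WT centre libraries were lower, at 4.39 ± 0.64 over WT centre (adjusted p = 0.0158) with 4.26 ± 0.64 of it in the position step. Its partner FLN2 was called at 4.67 ± 0.79 and PTAC10, another component, at 4.18 ± 0.70 (adjusted p = 0.0178 and 0.0171).

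Plastid chaperones had 4 of 11 genes called higher, all of them by position only, with medians of 1.46 over WT centre and -0.39 between the margins. CPN60A and CPN60B, subunits of the plastid chaperonin that folds Rubisco, had 521 and 646 CPM in FLV border, 995 and 593 CPM in WT border and 96.6 and 88.4 CPM in WT centre for CPN60A and 197 and 406 CPM in FLV border, 397 and 421 CPM in WT border and 42.9 and 31.8 CPM in WT centre for CPN60B. They were called at 2.66 ± 0.58 and 3.01 ± 0.58 (adjusted p = 0.0255 and 0.0202), and CR88, the plastid HSP90, at 2.88 ± 0.72. Of 8 nuclear genes for plastid ribosomal proteins, 2 were called lower, such as PRPL35 (-2.71), and RPL3P was called higher (2.55). All 3 also separated the margins. The median of these 8 genes turned from -1.40 to 0.48 with library totals, where 1 gene was called higher and none lower.

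Cell division genes were higher in the white margin than in the wild-type centre, and 8 were also called in the green margin over the centre. Of 21 mitosis genes, 10 were called higher and none lower, and 9 of the 10 followed position only. The medians were 2.54 over WT centre, -0.13 for the genotype step and 2.77 for the position step. KNOLLE, a syntaxin of the forming cell plate, had 4.35 and 11.1 CPM in FLV border, 13.3 and 5.8 CPM in WT border and 0.355 and 0.206 CPM in WT centre. The borders overlapped, and both stood above WT centre, at 4.79 ± 0.80 over WT centre (adjusted p = 0.0173) and 5.10 ± 0.81 for the position step (adjusted p = 0.0282). The B-type cyclin gene CYCB1;4 and CDC20.1, an activator of the anaphase-promoting complex, were called at 4.44 ± 0.73 and 4.21 ± 0.72. The summed level of the list was 102 and 161 CPM in FLV border, 239.6 and 78.9 CPM in WT border, and 22.1 and 17.5 CPM in WT centre.

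The upstream regions of KNOLLE and CYCB1;1 are shown because they hold the core of the mitosis-specific activator element, searched as AACGG on both strands. The core was present in 10 of the 21 mitosis genes and in 5510 of 26711 upstream regions, 20.6%. In KNOLLE (chr1:2711001-2711250, - strand) it begins 12 bases before the start, and in CYCB1;1 (chr4:17624309-17624558, - strand) 168, 61 and 13 bases before it (capitals, read on the gene's strand, with CCGTT where the match is on the other strand).
KNOLLE: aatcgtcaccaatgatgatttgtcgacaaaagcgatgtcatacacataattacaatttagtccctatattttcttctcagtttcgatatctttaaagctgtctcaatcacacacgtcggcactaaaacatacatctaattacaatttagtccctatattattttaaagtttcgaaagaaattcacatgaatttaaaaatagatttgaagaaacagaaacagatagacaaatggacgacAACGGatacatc
CYCB1;1: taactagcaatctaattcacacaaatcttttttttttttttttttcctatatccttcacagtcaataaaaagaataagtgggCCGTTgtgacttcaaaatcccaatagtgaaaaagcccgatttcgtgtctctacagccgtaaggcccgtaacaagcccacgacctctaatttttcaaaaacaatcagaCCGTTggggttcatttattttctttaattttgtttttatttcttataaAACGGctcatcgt
CYCB1;1 had 5.10 and 7.85 CPM in FLV border, 5.22 and 1.32 CPM in WT border and 0.267 and 0.412 CPM in WT centre, a change of 4.22 ± 0.85 over WT centre (adjusted p = 0.0219).

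DNA replication genes had 6 of 20 called higher and none lower, with 4 by position only. MCM7 and MCM4, subunits of the replicative helicase, were the other 2: they were higher over WT centre at 1.98 ± 0.44 and 2.01 ± 0.46 (adjusted p = 0.0267 and 0.0281), but both FLV border libraries lay below both WT border libraries. MCM7 had 18.8 and 15.9 CPM in FLV border, 23.0 and 24.9 CPM in WT border and 5.24 and 3.57 CPM in WT centre. The step between the margins was -0.47 ± 0.42 for MCM7 and -0.35 ± 0.43 for MCM4 and was not called for either. The list medians were 0.95 over WT centre, -0.40 for the genotype step and 1.39 for the position step.

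The stomatal lineage, the series of divisions that makes stomata in young epidermis, had 10 of 17 genes called higher and none lower. Of these, 5 followed position only, 4 also separated the margins and 1 reversed between them. The medians were 2.53 over WT centre, -0.02 for the genotype step and 1.90 for the position step. SDD1, a subtilisin-like protease that limits stomatal density, had 17.3 and 21.6 CPM in FLV border, 29.9 and 32.3 CPM in WT border and 0.267 and 0.687 CPM in WT centre. FLV border stood far above WT centre, at 5.30 ± 0.59 (adjusted p = 0.00842), and below WT border, at -0.68 ± 0.46. SPCH and MUTE, transcription factors that start and end the dividing phase, were called at 3.54 and 3.29 and followed position only, and POLAR, a protein of the dividing precursor cells, had 5.10 and 3.11 CPM in FLV border, 2.26 and 2.08 CPM in WT border and 0.0888 and 0.206 CPM in WT centre and was called at 4.72 ± 0.78. The receptors TMM and ER were called at 2.63 and 2.35. Of 9 genes of mature guard cells none was called, and their summed level was 168 and 136 CPM in FLV border, 115 and 174 CPM in WT border, and 239 and 582 CPM in WT centre.

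In the epidermis, cutin and wax list 4 of 21 genes were called higher and 1 lower, and 7 had a negative log2 fold change. The summed level was 1422 and 921 CPM in FLV border, 996 and 766 CPM in WT border, and 1010 and 1323 CPM in WT centre. By this sum FLV border overlapped with both wild-type groups. Of the defining epidermis markers PDF1 and ATML1 were called, and PDF2 and FDH were not. PDF1, a protein of the outermost cell layer (chromosome 2, 17826071 to 17827648 of TAIR10.1, - strand), had 43.3 and 23.8 CPM in FLV border, 60.9 and 19.9 CPM in WT border and 0.0888 and 0.481 CPM in WT centre. The WT centre libraries held 1 and 7 counts, and FLV border was higher at 6.79 ± 0.91 (adjusted p = 0.013) with the borders overlapping. ATML1, a homeobox factor that specifies the epidermis, had 74.8 and 74.9 CPM in FLV border, 46.6 and 56.0 CPM in WT border and 4.62 and 8.31 CPM in WT centre, in 3 groups that did not overlap, and was called at 3.53 ± 0.51. LACS2 and GPAT6, enzymes of cutin synthesis, were called at 3.33 and 2.48, and CER6, an enzyme of wax synthesis, was lower at -1.77 ± 0.47 (adjusted p = 0.0395), a sign that turned with library totals (0.052).

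Among markers of other cells, 3 of 17 tested xylem and secondary wall genes were called higher, with summed levels of 84.9 and 70.2 CPM in FLV border, 72.3 and 75.8 CPM in WT border, and 49.1 and 35.9 CPM in WT centre. CESA4 and CESA7, cellulose synthases of secondary walls, were called at 2.18 ± 0.46 and 2.59 ± 0.64, and XCP1, a xylem protease, was not (adjusted p = 0.189). Of the 17, 12 had a positive and 5 a negative log2 fold change. Of 13 phloem genes 1 was called higher and 3 lower. The list median of -0.20 turned to 1.57 with library totals, where 6 genes were called higher and 1 lower. SWEET11 and SWEET12, exporters that pass sucrose towards the phloem, were among the lower ones in the main fit, SWEET11 with 3.86 and 5.96 CPM in FLV border, 9.69 and 19.6 CPM in WT border and 149 and 25.2 CPM in WT centre and a change of -4.14 ± 0.86 (adjusted p = 0.0227), SWEET12 at -4.38 ± 1.21. The change of SWEET12 depended on the setting and ran from -5.26 to -0.44 over 18 alternatives. SEOR2, a filament protein of sieve elements, was the only phloem gene called higher, at 2.04 ± 0.46. It does not stand for the list, in which 8 of the 13 genes had a negative log2 fold change. None of 10 trichome genes was called, and GL1, a defining trichome marker, was too low to be tested. No tested defining marker was at 0 in all libraries of a group. What part differences in cell make-up have in the other results was not tested.

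The genes with the largest position-only increases had near-absent counts in the leaf centre. CYP77B1, a cytochrome P450 (chromosome 1, 3901950 to 3903895 of TAIR10.1, + strand), had 22.7 and 10.3 CPM in FLV border, 26.6 and 2.92 CPM in WT border and 0.178 and 0 CPM in WT centre, or 1618 counts in FLV border against 2 in WT centre, a ratio of 212 (58.6 to 1753). AT2G33850, annotated as E6-like, had 38.2 and 26.8 CPM in FLV border, 30.0 and 8.76 CPM in WT border and 0.267 and 0.275 CPM in WT centre and was called at 6.89 ± 0.81 (adjusted p = 0.0102). AT2G43590, a chitinase family gene, AT3G16660, of the pollen Ole e 1 and extensin family, and AT1G06360, of the fatty acid desaturase family, were called at 5.87, 5.76 and 5.75. In all of them the 2 borders overlapped.

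The aliphatic glucosinolate pathway, which makes methionine-derived defence compounds, was low in both margins. Of 17 genes tested, 11 were called lower in FLV border over WT centre and 1 higher. Of the 12, 8 followed position only, 3 also separated the margins and 1, CYP79F1, reversed between them. The medians were -3.39 over WT centre, -0.13 for the genotype step and -3.34 for the position step. BCAT4, the aminotransferase that starts the lengthening of methionine's side chain (chromosome 3, 6846969 to 6849582 of TAIR10.1, - strand), had 1.80 and 0.384 CPM in FLV border, 1.2 and 0.556 CPM in WT border and 159 and 97.2 CPM in WT centre. The borders overlapped and both were far below the centre, at -6.87 ± 0.89 over WT centre (adjusted p = 0.013) and -7.17 ± 0.91 for the position step. IPMI2 and IPMI1, subunits of the isomerase of the same cycle, were called at -5.83 ± 0.83 and -5.15 ± 0.57, MAM1, its condensing enzyme, at -3.81 ± 0.66 and BAT5, a transporter of its intermediates, at -4.65 ± 0.83. FMO_GS-OX3, which oxidises the side chain, was called at -3.37. The summed level of the list was 105 and 94.3 CPM in FLV border, 154 and 118 CPM in WT border, and 846 and 689 CPM in WT centre.

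Indole glucosinolates had 5 of 11 genes called lower and none higher, 3 by position only. MYB51, an activator of this pathway, had 2.29 and 1.01 CPM in FLV border, 0.975 and 2.36 CPM in WT border and 79.7 and 12.9 CPM in WT centre and was called at -4.81 ± 0.94 (adjusted p = 0.0209), and CYP79B3, which converts tryptophan to its oxime, at -2.54 ± 0.54. The list median of -1.33 became 0.43 with library totals, where 1 gene was called higher and 1 lower. Jasmonate genes had 4 of 19 called lower and none higher. AOS and AOC2, consecutive enzymes of jasmonate synthesis, had 59.6 and 20.7 CPM in FLV border, 77.5 and 62.3 CPM in WT border and 631 and 700.1 CPM in WT centre for AOS and 8.14 and 13.9 CPM in FLV border, 30.7 and 19.9 CPM in WT border and 225 and 97.3 CPM in WT centre for AOC2. They were called at -4.05 ± 0.67 and -3.87 ± 0.62 (adjusted p = 0.0169 and 0.0166). Salicylate genes had 3 of 13 called lower: PR1, a marker of this hormone's response, had 0.0408 and 0.0607 CPM in FLV border, 0.373 and 0.104 CPM in WT border and 5.33 and 2.54 CPM in WT centre and was called at -6.16 ± 0.97, and PAD4, a signalling lipase-like protein, at -2.69 ± 0.59. The jasmonate median of -0.84 turned to 0.87 with library totals, where 5 genes were called higher and 2 lower, and to 0.20 without WT centre library 1; with each other library left out it ran from -1.93 to -0.10. The salicylate median of -1.33 turned to 0.41 with library totals, with 2 called higher and 1 lower.

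Other position-only decreases lay outside these lists. PLA2A, a patatin-like lipase, had 0.0408 and 0.404 CPM in FLV border, 0.287 and 1.88 CPM in WT border and 23.9 and 13.1 CPM in WT centre and was called at -6.35 ± 1.16 (adjusted p = 0.019). Its genotype step was -2.24 ± 1.04 and was not called. ARI13, a RING-type protein, had 0.878 and 1.64 CPM in FLV border, 1.4 and 8.79 CPM in WT border and 115 and 30.8 CPM in WT centre, with its WT centre libraries well apart, at -5.85 ± 1.05. The genotype step of ARI13 was -2.01 ± 0.90 and was not called. AT1G17147, a VQ motif protein, and AT1G76960, of unknown function, were called at -5.94 ± 0.59 and -5.90 ± 0.83. For AT1G76960 the genotype step was 0.00 ± 0.86 and the position step -5.91 ± 0.84. Its margin libraries held few counts, so a difference between the margins in either direction stays possible.

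Genes that reversed between the margins were higher in FLV border than in WT centre but below WT border, or the mirror image. All 3 of the called genes of the leaf margin and auxin list, of 13 tested, were of this kind. WOX1, a homeobox factor of blade outgrowth, had 1.18 and 1.03 CPM in FLV border, 2.92 and 1.84 CPM in WT border and 0.0888 and 0.0687 CPM in WT centre, or 109 counts in FLV border against 2 in WT centre, a ratio of 14.3 (3.86 to 119). TAA1 and YUC2, enzymes of auxin synthesis, had 10.9 and 12.8 CPM in FLV border, 15.4 and 33.2 CPM in WT border and 0.444 and 2.54 CPM in WT centre for TAA1 and 3.06 and 2.83 CPM in FLV border, 5.36 and 4.07 CPM in WT border and 0.0888 and 0.481 CPM in WT centre for YUC2, and were called over WT centre at 2.95 ± 0.75 and 3.29 ± 0.76 (adjusted p = 0.0353 and 0.0295). The steps between the margins were -1.04 ± 0.67, -0.68 ± 0.62 and -1.10 ± 0.62 for TAA1, YUC2 and WOX1, none of them called. NAS1 and NAS3, nicotianamine synthases of metal transport and the 2 called genes of 15 on the iron list, showed the mirror image. NAS1 had 0.347 and 0.566 CPM in FLV border, 0.0573 and 0.174 CPM in WT border and 5.33 and 11.3 CPM in WT centre and was called at -4.18 ± 0.73 over WT centre, with 1.98 ± 0.80 between the margins.

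The mitochondrial genome had 23 genes called higher and 7 lower of 140 tested, and 24 of the 30 also separated the margins. The medians were 0.45 over WT centre, 0.77 for the genotype step and -0.33 for position. ATMG00090, whose length matches rps3, a ribosomal protein gene, had 291 and 325 CPM in FLV border, 126 and 182 CPM in WT border and 22.8 and 19.4 CPM in WT centre and was called at 3.86 ± 0.53 (adjusted p = 0.0137). ATMG00830, whose length matches ccmFN1, a gene of cytochrome c maturation, had 71.9 and 62.3 CPM in FLV border, 18.8 and 28.1 CPM in WT border and 6.31 and 9.75 CPM in WT centre and was called at 3.06 ± 0.49. Mitochondrial genes took 2.04 and 2.22% of all counts for FLV border, 0.963 and 1.01% for WT border and 1.35 and 0.556% for WT centre, so by share FLV border was above each of the other 4 libraries. The order differs on the scale used for the fold changes, where the summed level was 11914 and 12869 CPM in FLV border, 7880 and 8900 CPM in WT border and 24503 and 12688 CPM in WT centre. With library totals 84 genes were called higher and none lower, with a median of 2.21. With a length offset 33 were called higher and none lower, without WT centre library 2 the counts were 18 and 24, and the median was 1.25 when short RNA loci were left out.

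Gene length moved with the comparison. The median model length was 1992.5 bases for genes called higher, 1001 for genes called lower and 1527 over all genes tested. In genes of up to 500 bases the median log2 fold change was -1.43, with 19.4% called lower and 3.56% called higher. In genes of 2000 to 3000 bases it was 0.67, with 2.06% called lower and 11.8% called higher. The trend lay in the position step, -1.48 in the shortest and 0.55 in the 2000 to 3000 base bin, against 0.16 and 0.08 in the genotype step. When the dependence of each library on length was removed, the bin medians ran from -0.17 to 0.11, and 987 genes were called higher and 1190 lower, of which 846 and 1023 were among the calls above. The part of fragment length or RNA quality in this trend was not tested.

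**Figure D4:**
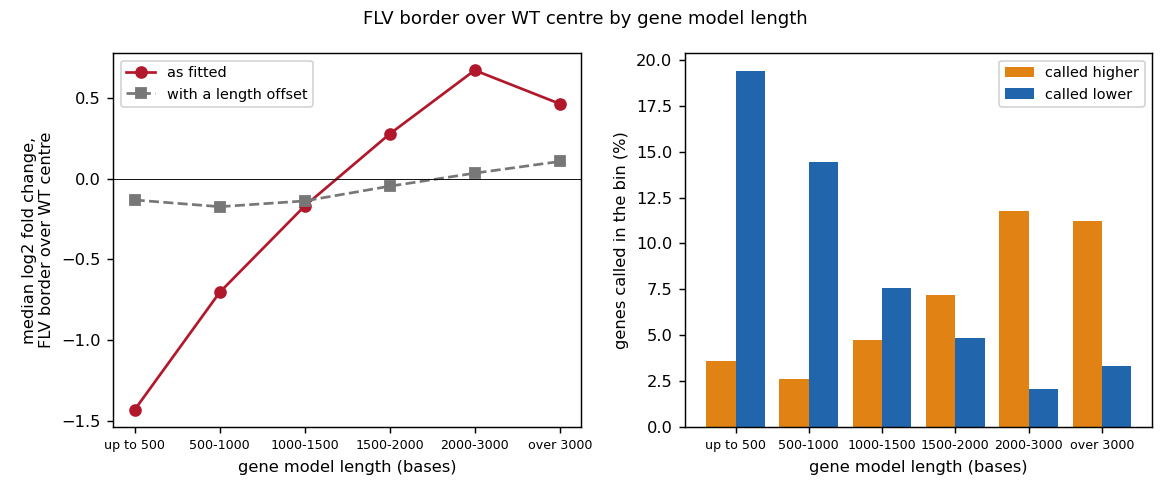
Left, the median log2 fold change between FLV border and WT centre (y axis, positive where FLV border is higher) in bins of gene model length in bases (x axis), as fitted and with an offset for the dependence of each library on length. Right, the percentage of genes in each bin called higher or lower. As fitted the medians run from -1.43 in the shortest bin to 0.67 at 2000 to 3000 bases, and with the offset from -0.17 to 0.11.

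Short RNA loci had the shortest models, with a list median of 73 bases. Of 247 small nucleolar, spliceosomal and transfer RNA loci tested, 59 were called lower and none higher, with a median of -2.16 over WT centre, 0.38 for the genotype step and -2.33 for the position step. Their summed level was 58334.9 and 35412 CPM in FLV border, 37530.9 and 29931.6 CPM in WT border, and 314696 and 50139.4 CPM in WT centre, so library 1 of WT centre stood above the other 5. Without that library the median was -0.58, with 23 called lower and 4 higher, and with a length offset it was -0.16, with 2 lower and 3 higher. With library totals the calls turned, to 9 higher and none lower, at a median of -0.42.

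The remaining lists held few calls. Of 13 anthocyanin and flavonoid genes 2 were called higher and 1 lower. F3H, an early enzyme of the pathway, had 19.3 and 4.43 CPM in FLV border, 10.9 and 2.4 CPM in WT border and 0.622 and 0.549 CPM in WT centre and was called at 4.34 ± 0.99 (adjusted p = 0.0281), and CHS, which starts it, at 3.56 ± 0.99 (adjusted p = 0.0451). Their 2 FLV border libraries were several-fold apart, as were those of WT border. Of 17 leaf growth genes 3 were called higher, among them ANT, which prolongs organ growth, at 2.45 ± 0.53, by position only. ELF3, a component of the evening complex, was the only one of 14 clock genes called, at 1.83 ± 0.46. Of 11 sugar starvation genes 1 was called lower. None of 13 leaf polarity genes and none of 13 genes of sugar import and cleavage was called.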

How the data were processed

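The deposited values are raw counts per gene model, 1 table per library, made by a program named sam2pkm per the file headers; the labels' protocols give a stranded total RNA kit, Ribo-Zero depletion and an Ion Proton instrument. The submitters' processing notes name TAIR10. The aligner and the treatment of multiply mapped reads are not given in the sources used here. Names and positions are those of the TAIR10.1 reference.

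The 15 rRNA loci were left out, genes were kept by filterByExpr with group as design, and TMM set the scaling. All 6 libraries entered the quasi-likelihood fit of edgeR 4.0.16 (robust, a mean for each group), which left 3 residual degrees of freedom; the common biological coefficient of variation was 0.456. Its p-values are two-sided, with Benjamini-Hochberg adjustment over 21852 genes. CPM are per 1e6 of the TMM-scaled library size. Alternatives included DESeq2 1.42.0 and limma 3.58.1 (voom). With 2 libraries against 2, an exact two-sided permutation test cannot go below 0.333, so single values were not tested alone. The depth of 20448315 to 33214552 counts sets the counting error. Ratios of groups with at most 3 counts carry exact 95% binomial intervals. The code was also run on simulated data with a smaller spread than these libraries. That run does not measure the error rates of the fit here.

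Named genes are DOT4, rpoC1, the 6 genes of largest change in each direction and class with at least 5 CPM, and the members of smallest p of each list. Any other gene was chosen with its values in view. The members and the 38 lists were chosen with earlier results of these data known. All 33602 models of the files were read.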

Additional observations from a re-analysis of the deposited data

Results flagged for a closer look

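Loci for ribosomal RNA, which were depleted before sequencing and left out of the fit, took 142 and 149 of every 1e6 counts in FLV border. For WT border this share was 0.456 and 9.26, and for WT centre 1.37 and 0.331. The signal lies outside the genes tested, and its part in the results was not tested.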

How the results depend on the processing

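Over WT centre, 1490 genes were called higher and 1606 lower, of which 1377 also separated the margins and 1521 followed position only. RLE scaling, nuclear TMM, rRNA loci kept, robust=FALSE, limma-voom, short RNA loci left out and the replicate block moved none of the 4 counts by over 1.5 times (1398, 1500, 1228 and 1458 with the replicate block; RLE scaling gave 1267 higher and 1837 lower, so 40.8% of calls were higher against 48.1%). The 13 calls of FLV border over WT border fell to 0 with the block. Library totals gave 11461 higher and 360 lower, with 7534 and 4001 in the 2 classes. Without a filter 2405 were higher and 1411 lower. DESeq2 gave 2268, 3175, 2099 and 2795. The length offset gave 987 higher and 955 by position only. The 4 libraries alone gave 504 and 702, and cannot give the classes. With 1 library left out, the counts ran from 0 to 2025 higher, 0 to 2370 lower, 0 to 1658 for genes that also separate the margins and 0 to 2329 by position only; all the zeros came without FLV border library 1, where the spread of the lone library is taken from the other groups. The signs of CER6 with library totals (0.052) and of LHCB1.1 without WT centre library 2 turned; with 1 library left out LHCB1.1 ran from -7.03 to 2.54. The library numbers are not shown to pair samples: the correlation of library differences was 0.43 between FLV border and WT border, 0.05 between FLV border and WT centre and 0.10 between WT border and WT centre, with 2 libraries a group. Depth limits genes with a few counts in WT centre, given as ratios with intervals.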
